A study of Homo sapiens with 9 samples.

Results

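The NBPF, NPIP and GOLGA6/8 genes are primate-expanded families of near-identical copies, and their messenger RNA was followed here in Jurkat T cells before and after activation. Members were taken by symbol: NBPF followed by a digit, NPIPA or NPIPB followed by a digit, and GOLGA6 or GOLGA8. The rule found 58 genes among the 19569 of the deposited count table, namely 13 NBPF, 7 NPIPA, 12 NPIPB, 12 GOLGA6 (GOLGA6L genes included) and 14 GOLGA8. The families were selected on their measured counts, which moved between 0 h and the activated libraries in these same data. Their fold changes are therefore given as a description, without p-values, and no difference from other genes is drawn from them. A member is named as called higher or lower where it passed a Benjamini-Hochberg adjusted p of 0.05 in an edgeR quasi-likelihood fit over all 12036 genes tested.

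NBPF genes, the neuroblastoma breakpoint family, encode proteins built of repeated Olduvai domains, a protein unit that gained more copies in the human lineage than in other primates, and most of them lie on chromosome 1. NPIP genes, the nuclear pore complex interacting protein family, travel with a segmental duplication that spread over chromosome 16 in great apes. GOLGA6 and GOLGA8 genes lie in duplicated blocks of chromosome 15 and encode coiled-coil proteins related to golgins, the tethers that catch vesicles at the Golgi apparatus. The cellular roles of most copies are poorly defined.

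Jurkat Clone E6-1 is an established human leukaemic T-cell line. The 9 libraries form 3 groups of 3: cells without activation (0 h), and cells activated for 5 h or for 12 h on plates coated with anti-CD3 antibody (10 µg/mL) with anti-CD28 antibody in the medium (5 µg/mL). The study asked how miRNAs act on translation and on RNA levels when T cells are activated. Untreated cultures of matching age were not among the samples, so the effects of activation and of the hours in culture cannot be told apart. The comparisons of 5 h and of 12 h with 0 h share the 0 h libraries. The labels call the replicates biological but do not say that they came from separate cultures, and the spread between libraries may be technical.

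Library totals ran from 4222258 to 9359187 counts, and the 58 members together held 11635 to 21077 counts in a library. All 12 T-cell markers examined were present, with median levels between 136.5 and 2382 CPM (counts per 1000000 of the TMM-scaled library size). Of the 5 B-cell markers, CD79A had a median of 143 CPM and the others were at or near 0. Erythroid, myeloid and fibroblast or epithelial markers did not exceed 3.05 CPM in any library. Bulk libraries cannot tell a change in every cell from a change in some of the cells.

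How alike the copies are sets how far a count can be tied to 1 gene. The following stretches of 60 coding bases, from GENCODE release 29 transcripts, are shown because they occur unchanged in nearly every tested copy of a family. The first is found in 10 of 11 NBPF members (all but NBPF3), the second in 7 of 7 NPIPA members, the third in 11 of 12 NPIPB members (all but NPIPB2) and the last in 4 of 5 GOLGA8 members (all but GOLGA8H). All letters are lower case because no base differs between these copies. A read lying wholly within such a stretch fits each of them equally, while a longer read may reach bases that differ.
NBPF shared coding stretch: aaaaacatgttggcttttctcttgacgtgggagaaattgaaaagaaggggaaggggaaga
NPIPA shared coding stretch: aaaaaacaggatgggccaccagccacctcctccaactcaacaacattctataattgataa
NPIPB shared coding stretch: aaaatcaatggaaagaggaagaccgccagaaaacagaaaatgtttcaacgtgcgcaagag
GOLGA8 shared coding stretch: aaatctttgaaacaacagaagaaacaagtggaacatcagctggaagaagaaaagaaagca

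Over whole transcripts, a median of 16.6% of the 31-base words of a tested member occurred in no other gene of the count table, against a median of 99.1% for 11981 other tested genes. The share ran from 0% for NPIPB12 to 79.1% for NBPF3. NBPF1 had 70.4% and NBPF9 43.2%, so these 3 were the NBPF copies with the most sequence of their own. NPIPA2 had 0.367% and NPIPA3 1.06%, and 94.6% of the words of NPIPA3 were also in NPIPA2. The longest coding sequences of NPIPB12 (1786 bases) and NPIPB13 (3414 bases) differed at 1 of 1786 aligned bases. Those of NBPF11 (2595 bases) and NBPF12 (4371 bases) differed at 17 of 2595 aligned bases. The further bases of the longer sequence in each pair had no counterpart in the shorter. The authors' notes name RSEM, a program that divides reads fitting several transcripts among them by estimation. Counts of single copies are therefore uncertain, and each family was also summed.

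At 5 h, the summed NBPF, NPIPB, GOLGA6 and GOLGA8 counts stood above 0 h, and the NPIPA sum overlapped with it. Members took 0.193% ± 0.0195 of all counts at 0 h (SD, n = 3), 0.271% ± 0.0136 at 5 h and 0.243% ± 0.0281 at 12 h. A fit in which each family was replaced by its sum gave the fold changes below, with standard errors (SE) on the log2 scale. With 3 libraries against 3, an exact permutation test cannot give a p under 0.1, and the groups of values are given in its place.

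The NBPF sum was 722, 821 and 817 CPM in the 0 h libraries, 1238, 1197 and 1170.0 CPM at 5 h, and 1194, 966.5 and 983 CPM at 12 h. Every activated library lay above every 0 h library, with the 5 h libraries close together. The log2 fold change of the NBPF sum was 0.61 ± 0.10 (SE) at 5 h and 0.41 ± 0.10 at 12 h. The NPIPB sum was 588, 703 and 712 CPM at 0 h, 1255, 1087 and 1075 CPM at 5 h, and 1151, 912 and 935 CPM at 12 h. These groups did not overlap with 0 h either. Its log2 fold changes were the largest of the 5 families at 5 h, 0.77 ± 0.11, and 0.58 ± 0.11 at 12 h.

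The GOLGA8 sum was 141, 196 and 187 CPM at 0 h, 254, 229 and 243.5 CPM at 5 h, and 290, 258 and 240.2 CPM at 12 h. No activated library overlapped with 0 h, and the log2 fold changes were 0.47 ± 0.11 and 0.59 ± 0.11. The GOLGA6 sum, the smallest, went from 41.5 to 50.2 CPM at 0 h to 55.5 to 63.6 CPM at 5 h and 59.0 to 67.3 CPM at 12 h, again without overlap (log2 0.39 ± 0.10 and 0.44 ± 0.10). The NPIPA sum was 143, 165 and 159 CPM at 0 h, 176, 158 and 134 CPM at 5 h, and 138, 102.5 and 115 CPM at 12 h. Its 0 h and 5 h libraries overlapped (log2 0.002 ± 0.11), while all 12 h libraries lay below all 0 h libraries (log2 -0.41 ± 0.11). NPIPA was thus the 1 family of the 5 whose sum was lower at 12 h. The NPIPA and NPIPB families also share sequence with each other. In NPIPB5 occur 33.7% of the 31-base words of NPIPA2 and 17.0% of those of NPIPA9. The division of reads between the NPIPA and NPIPB sums was not tested. Some sums rested on 1 copy. Without GOLGA8B, the GOLGA8 sum had a log2 fold change of 0.15 at 5 h and was no longer called. Without NPIPA9, the NPIPA sum was no longer called at 12 h (log2 -0.12), and neither was the GOLGA6 sum without GOLGA6L4 (log2 0.26).

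**Figure D1:**
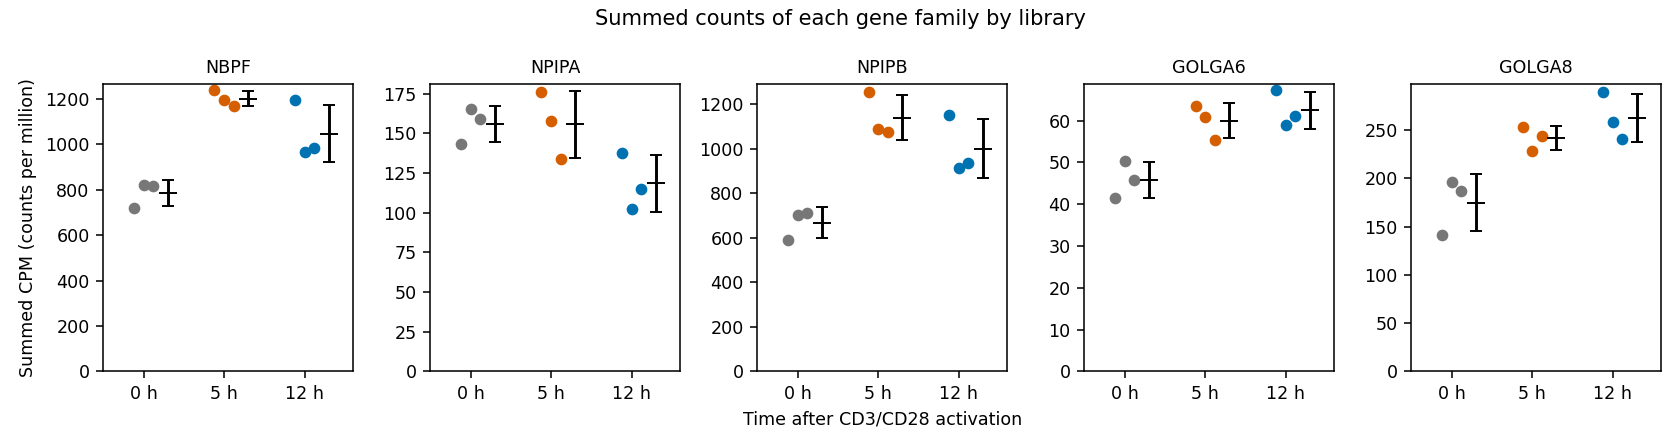
Summed CPM (linear axis from 0) of each family in each library at 0 h, 5 h and 12 h; each point is a library and bars show the mean ± SD of 3. The NBPF, NPIPB, GOLGA6 and GOLGA8 points at 5 h and 12 h all sit above the 0 h points, while the NPIPA points overlap at 5 h and are lower at 12 h.

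Replicate 1 of 0 h had the lowest summed CPM of its group in all 5 families, and replicate 1 of 12 h, the library with the smallest total, the highest of its group. Without 0 h replicate 1, 19 members were called higher at 5 h in place of 25. Without 12 h replicate 1, 19 were called higher at 12 h in place of 22. The part of depth in these differences was not tested.

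Of the 58 members, 38 passed the filter on low counts and were tested. At 5 h, 25 of the 38 were called higher and 2 lower, while 49.7% of all tested genes were called, 24.9% higher and 24.8% lower. At 12 h, 22 were called higher and 4 lower, while 51.1% of all genes were called, 26.3% higher and 24.8% lower. Both calls higher were held by 20 members (16.3% of all genes) and both calls lower by 2, NPIPA1 and GOLGA8O (16.1%). The median log2 fold change of the tested members was 0.51 at 5 h and 0.48 at 12 h, and that of all tested genes 0.001 and -0.001. The filter can keep a gene through its highest group, so these counts cover only the members that passed. All 3 libraries of 5 h lay above all 3 of 0 h in 26 members (29.5% of all genes), and all 3 below in 1 (29.1%). At 12 h this held for 20 members above (28.2%) and 3 below (28%).

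**Figure D2:**
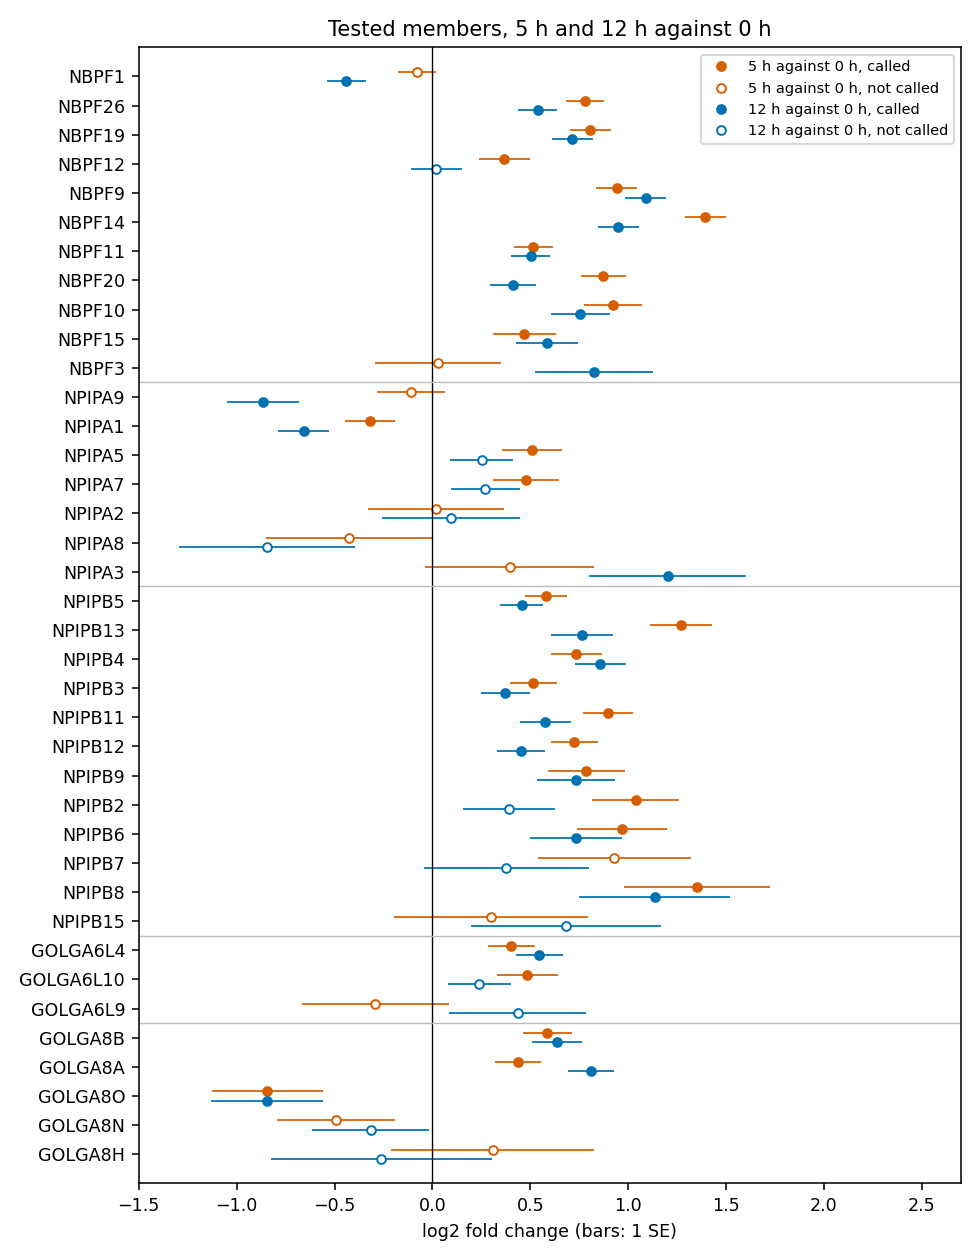
Log2 fold change (x axis) of each of the 38 tested members at 5 h (orange) and 12 h (blue) against 0 h; bars are 1 SE and filled points were called at an adjusted p under 0.05. Most NBPF and NPIPB points lie between 0.37 and 1.39, and points to the left of 0 are found mainly in NPIPA and GOLGA8.

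Among NBPF genes, 9 of the 11 tested were called higher at 5 h and 9 at 12 h, and NBPF1 was called lower at 12 h. Over all tested genes, 24.9% were called higher at 5 h, and 26.3% higher and 24.8% lower at 12 h. Between 20.4% (NBPF3) and 87.9% (NBPF10) of a copy's 31-base words occur in another tested NBPF copy, so these calls are not independent. NBPF14 (chromosome 1, 148531385 to 148679751, minus strand, GRCh38) had the largest change of all members at 5 h. It was at 48.3, 53.8 and 54.6 CPM at 0 h, 157, 136 and 119 CPM at 5 h, and 96.6, 99.1 and 107 CPM at 12 h. The 3 groups did not overlap, with 5 h highest and 12 h in between. The log2 fold change of NBPF14 was 1.39 ± 0.10 at 5 h and 0.95 ± 0.10 at 12 h. Only 9.88% of the 31-base words of NBPF14 were its own, and 64.8% of them were also in NBPF10.

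NBPF1 (chromosome 1, 16562319 to 16613562, minus strand) lies far from most other copies on the same chromosome and had the most counts of the family. It was at 177, 199.6 and 192 CPM at 0 h, 175, 185 and 179 CPM at 5 h, and 164, 133 and 124 CPM at 12 h. The 0 h and 5 h libraries overlapped, and the 12 h libraries were below both. Its log2 fold change was -0.08 ± 0.10 at 5 h and -0.44 ± 0.10 at 12 h. NBPF1 held 24.5, 24.3 and 23.5% of the NBPF sum at 0 h, 14.1, 15.5 and 15.3% at 5 h, and 13.8, 13.7 and 12.7% at 12 h. The sum of the other NBPF copies went from 597 ± 45.5 CPM at 0 h to 1022 ± 37.1 CPM at 5 h and 907 ± 107 CPM at 12 h (SD, n = 3).

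NBPF9, at chromosome 1, 149054027 to 149103561, was at 54.1, 69.4 and 66.7 CPM at 0 h, 124, 121 and 120.0 CPM at 5 h, and 154, 126 and 126 CPM at 12 h. Its activated libraries all lay well above 0 h and were highest at 12 h (log2 0.94 ± 0.10 at 5 h and 1.09 ± 0.10 at 12 h). NBPF26 rose from 98.9 ± 7.13 CPM to 169.9 ± 6.93 CPM at 5 h (log2 0.78 ± 0.10) and 144 ± 20.5 CPM at 12 h (log2 0.54 ± 0.10). NBPF19 rose from 84.1 ± 11.4 CPM to 147 ± 1.64 CPM at 5 h (log2 0.81 ± 0.10) and 138 ± 16.2 CPM at 12 h (log2 0.72 ± 0.10). In both, all activated libraries were above the 0 h libraries. NBPF12 was at 107 ± 13.3, 138 ± 8.91 and 109.8 ± 26.4 CPM and was called higher at 5 h alone (log2 0.37 ± 0.13), a call lost without 0 h replicate 1 (0.26), 5 h replicate 1 (0.34) or 5 h replicate 2 (0.33). The other tested NBPF copies, NBPF10, NBPF11, NBPF15, NBPF20 and NBPF3, had log2 fold changes between 0.03 (NBPF3) and 0.92 (NBPF10) at 5 h.

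**Figure D3:**
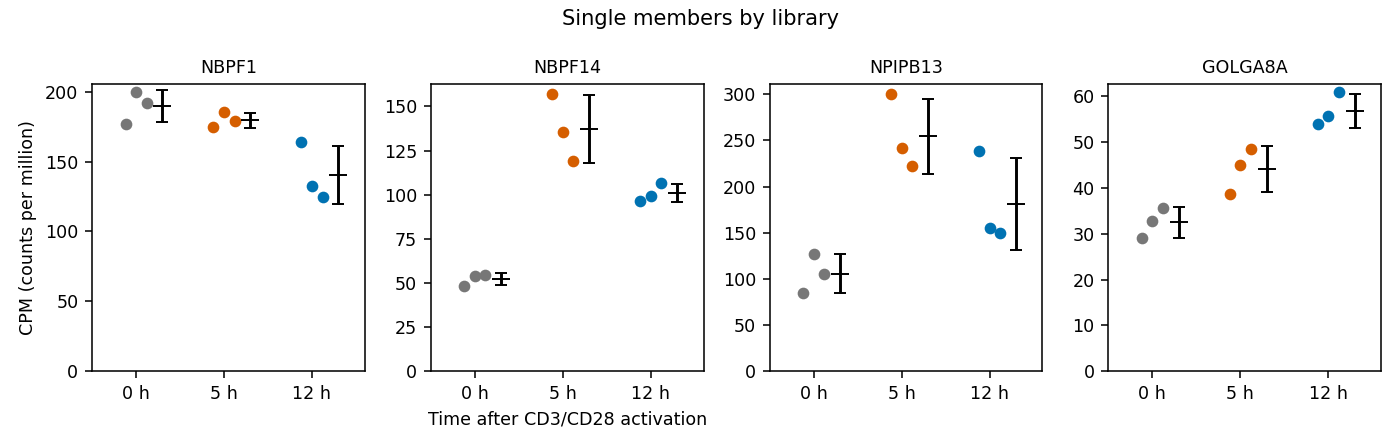
CPM (linear axes from 0) of 4 members in each library at 0 h, 5 h and 12 h; points are libraries and bars the mean ± SD of 3. NBPF1 is lowest at 12 h, NBPF14 and NPIPB13 are highest at 5 h, and GOLGA8A steps upward from 0 h to 5 h to 12 h.

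Of the 12 NPIPB genes tested, 10 were called higher at 5 h and 9 at 12 h, and 0 were called lower at either time. Over all tested genes, 24.9% were called higher at 5 h and 26.3% at 12 h. Between 59.8% (NPIPB2) and 100% (NPIPB12) of a copy's 31-base words occur in another tested NPIPB copy, so these calls are not independent. NPIPB5 (chromosome 16, 22479121 to 22536521, plus strand) had the most counts of all members. It was at 285.5, 307 and 316 CPM at 0 h, 503, 416 and 439.9 CPM at 5 h, and 484, 346 and 419 CPM at 12 h. All activated libraries were above the 0 h libraries, and 5 h and 12 h overlapped (log2 0.58 ± 0.11 and 0.46 ± 0.11). Per kilobase of exon sequence, NPIPB5 stood highest of the members at a mean level of 39.1 CPM per kb over the 9 libraries, followed by NPIPB13 at 34.7 CPM per kb.

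NPIPB13 (chromosome 16, 30222937 to 30254510, minus strand) was at 84.9, 127 and 105 CPM at 0 h, 299.8, 242 and 222 CPM at 5 h, and 238, 155 and 149 CPM at 12 h. The 5 h libraries were the highest but overlapped with 12 h, and neither overlapped with 0 h. Its log2 fold change was 1.27 ± 0.16 at 5 h and 0.76 ± 0.16 at 12 h. Of its 31-base words, 3.70% were its own. NPIPB8, with 131 counts in all 9 libraries together, was at 1.15, 0.747 and 1.34 CPM at 0 h, 2.41, 3.51 and 2.51 CPM at 5 h, and 2.93, 2.18 and 2.37 CPM at 12 h. Its log2 fold changes were 1.35 ± 0.37 and 1.14 ± 0.39, and the call at 12 h was lost without 0 h replicate 2 (0.95) or 12 h replicate 1 (1.03).

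NPIPB4, NPIPB3, NPIPB11 and NPIPB12 were called higher at both times. NPIPB4 went from 82.7 ± 15.95 CPM to 138 ± 7.84 CPM at 5 h (log2 0.73 ± 0.13) and 149 ± 26.6 CPM at 12 h (log2 0.86 ± 0.13). NPIPB11 went from 35.6 ± 4.84 CPM to 66.4 ± 8.27 CPM (log2 0.90 ± 0.13) and 53.8 ± 7.90 CPM (log2 0.58 ± 0.13). NPIPB3 and NPIPB12 had log2 fold changes of 0.52 ± 0.12 and 0.72 ± 0.12 at 5 h, and 0.37 ± 0.12 and 0.45 ± 0.12 at 12 h, and the 12 h call of NPIPB3 was lost without 0 h replicate 1 (0.25) or 12 h replicate 1 (0.26). NPIPB2 was called higher at 5 h alone, at 19.7, 24.2 and 12.8 CPM against 9.84, 7.62 and 10.1 CPM at 0 h (log2 1.04 ± 0.22). Its 12 h libraries, at 16.4, 12.4 and 8.59 CPM, overlapped with both other groups (log2 0.39 ± 0.24). NPIPB6 and NPIPB9 were called higher at both times, and NPIPB7 and NPIPB15 at neither.

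NPIPA genes went in both directions. At 5 h, NPIPA5 and NPIPA7 were called higher and NPIPA1 lower. At 12 h, NPIPA3 was called higher and NPIPA9 and NPIPA1 lower. NPIPA1 (chromosome 16, 14922802 to 14952060, plus strand) was at 36.3, 43.2 and 38.8 CPM at 0 h, 32.5, 32.6 and 29.6 CPM at 5 h, and 21.7, 29.9 and 22.1 CPM at 12 h. Its activated libraries were all below the 0 h libraries (log2 -0.32 ± 0.13 and -0.66 ± 0.13). Of the 31-base words of NPIPA1, 18.5% were its own. The 5 h call of NPIPA1 was lost in 5 of the 6 fits that left out 1 library (log2 -0.26 to -0.35 in those fits), all but that without 0 h replicate 1. It was also lost with DESeq2 and with limma on the authors' log2 table, at -0.32 in each.

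NPIPA5 (chromosome 16, 15363624 to 15381047, minus strand) was at 16.8, 23.3 and 22.7 CPM at 0 h, 36.4, 25.9 and 26.9 CPM at 5 h, and 28.6, 22.5 and 24.6 CPM at 12 h. All 5 h libraries exceeded the 0 h libraries, with replicate 1 the highest, and the 12 h libraries overlapped with 0 h (log2 0.51 ± 0.15 and 0.25 ± 0.16). NPIPA7 was at 12.6 ± 1.97, 17.6 ± 3.48 and 15.3 ± 1.90 CPM (log2 0.48 ± 0.17 at 5 h and 0.27 ± 0.17 at 12 h). Both 5 h calls were lost without 0 h replicate 1 (NPIPA5 0.36, NPIPA7 0.34) or 5 h replicate 1 (0.34 and 0.31). NPIPA3, with 165 counts in all libraries together, was at 2.05, 0.897 and 2.07 CPM at 0 h and 4.64, 5.23 and 1.92 CPM at 12 h, which overlap (log2 1.20 ± 0.40). Its call was lost without 0 h replicate 2 (0.93) or 12 h replicate 2 (0.85). NPIPA2 was not called (log2 0.02 ± 0.35 at 5 h and 0.09 ± 0.35 at 12 h). NPIPA8 was not called either (log2 -0.43 ± 0.42 and -0.84 ± 0.45), but at 12 h it was called lower without a filter (-0.85), without 0 h replicate 3 (-1.14) or without 12 h replicate 1 (-1.29).

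RefSeq (GRCh38.p14) places the starts of NPIPA1 and NPIPA5 behind nearly the same 300 bases. They are shown because the counts of these copies were called in opposite directions at 5 h. Of the 31-base words of NPIPA5, 80.4% also occur in NPIPA1, and the division of reads between these copies was not tested. The stretches run from 250 bases before to 50 after the RefSeq start, at chr16:14937193-14937492 on the plus strand for NPIPA1 and chr16:15378245-15378544 on the minus strand for NPIPA5. Both lie within the gene as GENCODE release 29 draws it. The capital marks the 1 base that differs.
NPIPA1 promoter: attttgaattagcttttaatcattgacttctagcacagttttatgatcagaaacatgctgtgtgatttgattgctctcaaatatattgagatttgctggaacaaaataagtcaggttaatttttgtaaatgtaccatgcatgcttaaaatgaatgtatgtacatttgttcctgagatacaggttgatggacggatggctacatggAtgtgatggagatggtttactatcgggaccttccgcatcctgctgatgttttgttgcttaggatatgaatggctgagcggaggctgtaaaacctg
NPIPA5 promoter: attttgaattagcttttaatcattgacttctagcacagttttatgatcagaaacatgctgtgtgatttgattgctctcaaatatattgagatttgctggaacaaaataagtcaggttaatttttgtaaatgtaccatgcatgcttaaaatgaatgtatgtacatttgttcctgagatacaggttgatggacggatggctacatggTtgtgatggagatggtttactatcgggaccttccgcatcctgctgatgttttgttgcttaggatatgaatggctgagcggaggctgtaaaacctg
Neither stretch held any of the 7 motifs searched. A RefSeq promoter entry of NPIPB2, at chr16:11941996-11942295 on the minus strand, holds nearly the same bases, and NPIPB2 was called higher at 5 h.

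NPIPA9 (chromosome 16, 18358086 to 18379331, minus strand) was at 64.4, 74.6 and 72.9 CPM at 0 h, 73.1, 69.2 and 53.7 CPM at 5 h, and 51.5, 23.8 and 44.9 CPM at 12 h. All 12 h libraries were lower than the others, with replicate 2 lowest by far (log2 -0.11 ± 0.17 at 5 h and -0.86 ± 0.18 at 12 h). A second row, ENSG00000183889 (chromosome 16, 16317444 to 16350590, plus strand), is named PKD1P1 in GENCODE release 29 and NPIPA9 in the gene-name table, had no symbol from the authors, and was not counted as a member. Its longest coding sequence is identical to that of NPIPA9 over 1107 bases, and it holds 97.8% of the 31-base words of NPIPA9. It also holds 65.4% of those of NPIPA1, and the division of reads between this row and NPIPA1 was not tested.

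ENSG00000183889 was at 14.9, 32.8 and 12.1 CPM at 12 h, highest in replicate 2, where NPIPA9 was lowest. Added together, both rows were at 80.3, 96.7 and 86.2 CPM at 0 h, 95.0, 90.3 and 76.5 CPM at 5 h, and 66.4, 56.6 and 57.0 CPM at 12 h. The 12 h libraries of the sum lay together and below all others. The coefficient of variation at 12 h was 36.1% for NPIPA9, 56.3% for ENSG00000183889 and 9.22% for their sum. At 0 h the sum varied more than NPIPA9 (9.478% against 7.715%), and at 5 h it varied less (11.06% against 15.65%). Adding this row to the NPIPA sum gave 173 ± 14.1, 178 ± 20.8 and 138 ± 12.9 CPM at 0, 5 and 12 h.

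**Figure D4:**
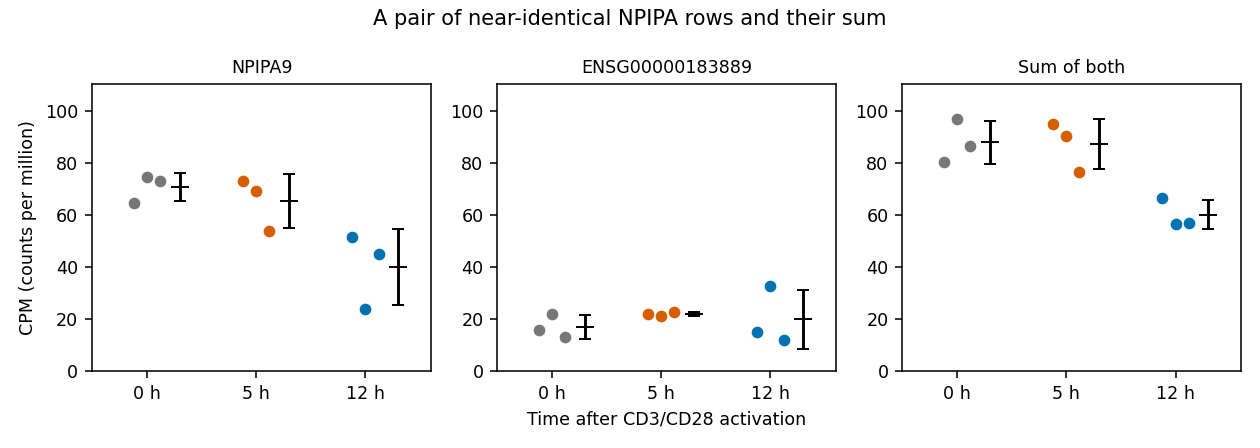
CPM (linear axis from 0) of NPIPA9, of the near-identical row ENSG00000183889 and of their sum, in each library at 0 h, 5 h and 12 h; points are libraries and bars the mean ± SD of 3. At 12 h the replicate with the lowest NPIPA9 value, 23.8 CPM, has the highest ENSG00000183889 value, 32.8 CPM, and the summed points run from 56.6 to 66.4 CPM.

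The same comparison over families showed sums that varied less than most of their copies. At 12 h, 11 of the 12 tested NPIPB copies had a higher coefficient of variation than the NPIPB sum (13.2%), with a median of 17.2% and a highest value of 73.7% for NPIPB15. For NPIPA at 12 h, the median copy had 36.1% and the sum 15.0%. At 5 h, the median GOLGA8 copy had 36.5% and the sum 5.19%. The difference was small for NBPF at 5 h (median copy 3.01%, sum 2.84%) and for GOLGA8 at 0 h (17.2% and 16.9%). Low-count copies also vary more by counting alone, and a sum of several copies can vary less by averaging alone. Neither part was separated from the division of reads between copies.

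Of the GOLGA6 genes, 3 were tested. GOLGA6L4 (chromosome 15, 84235773 to 84245368, plus strand) held 58.2 to 66.0% of the family sum in each library. It was at 24.3, 30.9 and 27.3 CPM at 0 h, 39.7, 35.4 and 33.8 CPM at 5 h, and 43.2, 38.9 and 38.6 CPM at 12 h. All activated libraries were above 0 h (log2 0.40 ± 0.12 and 0.55 ± 0.12), although the 5 h call was lost without 0 h replicate 1 (0.31). GOLGA6L10 was called higher at 5 h alone, at 14.5 ± 1.75 CPM at 0 h and 20.2 ± 2.41 CPM at 5 h (log2 0.48 ± 0.16), and was at 17.4 ± 3.18 CPM at 12 h. That call was lost without 0 h replicate 1 (0.39) or 5 h replicate 2 (0.42). GOLGA6L9, at 2.86, 2.37 and 3.73 CPM on average, was not called.

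GOLGA8B and GOLGA8A were called higher at both times. GOLGA8B (chromosome 15, 34525207 to 34588503, minus strand) held 66.7 to 79.5% of the family sum. It was at 93.8, 144 and 133 CPM at 0 h, 202, 172 and 183 CPM at 5 h, and 219, 191 and 168 CPM at 12 h. All activated libraries were above 0 h, and 5 h overlapped with 12 h (log2 0.59 ± 0.13 and 0.64 ± 0.13). GOLGA8A (chromosome 15, 34379068 to 34437466, minus strand) was at 29.02, 32.9 and 35.6 CPM at 0 h, 38.6, 45.0 and 48.6 CPM at 5 h, and 53.9, 55.7 and 61.0 CPM at 12 h. Its 3 groups did not overlap and stood in order of time (log2 0.44 ± 0.12 and 0.81 ± 0.12).

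The coding sequences of GOLGA8A and GOLGA8B differ at 3 of 1893 aligned bases, and 75.3% of the 31-base words of GOLGA8A occur in GOLGA8B. A stretch of 90 coding bases around 1 of these differences, in capitals, shows how little separates their reads.
GOLGA8A coding stretch: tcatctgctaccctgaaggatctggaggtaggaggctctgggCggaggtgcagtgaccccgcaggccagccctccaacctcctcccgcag
GOLGA8B coding stretch: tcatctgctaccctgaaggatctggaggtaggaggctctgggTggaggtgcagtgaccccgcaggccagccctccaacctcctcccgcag
Summed, GOLGA8A and GOLGA8B were at 156 ± 29.2 CPM at 0 h, 229.7 ± 11.6 CPM at 5 h and 249.8 ± 22.1 CPM at 12 h.

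GOLGA8O was called lower at both times. This gene (chromosome 15, 32445106 to 32455634, minus strand) was at 7.93, 11.2 and 10.2 CPM at 0 h, 7.97, 4.59 and 3.76 CPM at 5 h, and 8.79, 3.82 and 4.89 CPM at 12 h. Replicate 1 of each activated group reached into the 0 h range, so the groups overlapped (log2 -0.84 ± 0.28 and -0.85 ± 0.29). Its call was lost in 4 of 6 fits at each time when 1 library was left out. The 5 h call was lost without 0 h replicate 2 (-0.75) or 3 (-0.81) and 5 h replicate 2 (-0.74) or 3 (-0.64), and the 12 h call without 0 h replicate 2 (-0.74) or 3 (-0.81) and 12 h replicate 2 (-0.58) or 3 (-0.77). GOLGA8N, at 5.84 ± 0.915, 4.17 ± 1.94 and 4.62 ± 1.06 CPM, and GOLGA8H, with 71 counts in all, were not called.

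The RefSeq promoters of GOLGA8B and GOLGA8O, 300 bases each, were 163 single-base edits apart (bases changed, added or removed). Those of NPIPA1 and NPIPA5 were 1 edit apart, so GOLGA8B and GOLGA8O do not have near-identical promoters. The 300 bases around their RefSeq starts, at chr15:34583602-34583901 for GOLGA8B and chr15:32455585-32455884 for GOLGA8O, both on the minus strand, are shown because GOLGA8B was called higher and GOLGA8O lower. The capitals mark the only motif matches found, an ETS match (CCGGAA, here on the opposite strand) in GOLGA8B and a CCAAT box in GOLGA8O.
GOLGA8B promoter: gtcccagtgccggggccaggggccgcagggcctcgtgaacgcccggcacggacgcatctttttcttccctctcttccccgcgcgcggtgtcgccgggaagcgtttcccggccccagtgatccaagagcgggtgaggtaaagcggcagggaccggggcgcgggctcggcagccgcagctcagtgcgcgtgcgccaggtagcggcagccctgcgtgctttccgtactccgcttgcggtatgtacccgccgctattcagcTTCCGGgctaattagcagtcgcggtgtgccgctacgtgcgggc
GOLGA8O promoter: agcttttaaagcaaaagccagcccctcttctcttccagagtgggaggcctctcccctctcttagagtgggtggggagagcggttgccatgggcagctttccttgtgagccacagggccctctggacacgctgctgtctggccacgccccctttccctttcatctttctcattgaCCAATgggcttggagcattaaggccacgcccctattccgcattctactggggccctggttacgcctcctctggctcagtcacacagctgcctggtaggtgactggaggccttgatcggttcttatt
The promoter of GOLGA8N matches that of GOLGA8O over all 298 aligned bases, with 2 bases in each that the other lacks.

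Promoter entries were found for 27 of the 38 tested members, 30 entries in all, and were searched on both strands for 7 motifs. The AP-1 motif (TGANTCA) was in none of the 30 and in 7.71% of all 35116 promoters of the same length, the EGR1 motif (GCGNGGGCG) in none and 9.43%, and the E-box (CACGTG) in none and 7.26%. The Sp1 motif (GGGCGG) was in 7 of 30 and 45% of all, the ETS motif (CCGGAA) in 4 and 17.2%, the CCAAT box (CCAAT) in 9 and 34.6%, and the TATA box (TATAAA) in 7 and 11.5%. The EGR1 and Sp1 motifs can overlap. A match or its lack describes these letters only, and entries of near-identical copies repeat each other.

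Between 5 h and 12 h, 2 members were called higher at 12 h (18.1% of all tested genes) and 7 lower (18%), with 36.1% of all genes called in either direction. Those higher were GOLGA8A and NBPF3, and those lower were NBPF1, NBPF12, NBPF14, NBPF20, NPIPA9, NPIPB13 and NPIPB2. All 3 libraries of 12 h lay above all 3 of 5 h in 3 members (21.8%) and below in 4 (23.1%). Of the sums, that of NPIPA was called lower at 12 h than at 5 h (log2 -0.41 ± 0.11), and the call was lost without 5 h replicate 1 (-0.31) or 12 h replicate 2 (-0.30). The NBPF and NPIPB sums were not called (log2 -0.20 ± 0.10 and -0.19 ± 0.11), and both were called lower without 12 h replicate 1, at -0.31 each.

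The 20 members that were not tested had few or no counts. GOLGA6L2, GOLGA6L22, GOLGA8G, GOLGA8J and GOLGA8S had no count in any library. For a library taken alone, no count allows up to 3 expected counts, and the 9 libraries together allow fewer in each. Another 14 had counts in fewer than 9 libraries, with at most 20 counts over all libraries (GOLGA6L1). GOLGA8F had counts in every library, 61 in all, between 0.610 and 1.35 CPM. NBPF4 and NBPF6, the NBPF copies not tested, had 5 and 4 counts in total.

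Golgins and other Golgi-linked genes kept as single copies, such as GOLGA4, GOLGB1, the stacking protein gene GORASP2 and the dynein adaptor gene BICD2, were counted beside the GOLGA6 and GOLGA8 copies. Of 18 tested, 8 were called higher and 1, GOLGA3, lower at 5 h, and 9 higher and 1, again GOLGA3, lower at 12 h. The medians of their log2 fold changes were 0.21 and 0.30. GOLGA4 rose from 223 ± 9.86 CPM to 306 ± 34.1 CPM at 5 h (log2 0.46 ± 0.10) and 326 ± 35.7 CPM at 12 h (log2 0.55 ± 0.10). GOLGA2, which encodes the cis-Golgi tether GM130, was called higher at 12 h alone (log2 0.41 ± 0.12). Of 59 tested genes of other recently duplicated human families, 11 were higher and 10 lower at 5 h, and 16 and 10 at 12 h, with medians of 0.03 and 0.19. The shares over all tested genes were 24.9% higher and 24.8% lower at 5 h, and 26.3% and 24.8% at 12 h.

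Transcripts known for retained introns, such as those of CLK1 and LUC7L3, were listed because such introns are often kept while the RNA is still in the nucleus. Of 24, 18 were called higher and 1 lower at 5 h, and 20 higher and 0 lower at 12 h, with medians of 0.37 and 0.55. Over all tested genes, 24.9% were called higher and 24.8% lower at 5 h, and 26.3% and 24.8% at 12 h. LUC7L3, a splicing factor gene, rose from 479 ± 40.2 CPM to 634 ± 12.0 CPM at 5 h and 1044 ± 82.4 CPM at 12 h. The part of such RNA in the members' values was not tested.

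Of 46 tested genes next to the members on the RefSeq map, 16 were called higher and 14 lower at 5 h, and 20 and 12 at 12 h. Of all tested genes, 24.9% were called higher and 24.8% lower at 5 h, and 26.3% and 24.8% at 12 h. The medians of the neighbours were 0.14 and 0.21. Beside NBPF copies, the neighbours called higher at both times included NOTCH2NLA, NOTCH2NLB and NOTCH2NLC, human-specific relatives of NOTCH2, and PDE4DIP, which encodes the centrosome and Golgi protein myomegalin. The NOTCH2NL genes also belong to the other recently duplicated families counted above, and how reads were divided among them was not examined. NOTCH2NLA went from 6.84 CPM at 0 h to 16.7 CPM at 5 h and 15.6 CPM at 12 h (log2 1.29 ± 0.20 at 5 h), and NOTCH2NLB from 0.480 to 2.16 and 2.95 CPM. PDE4DIP, next to NBPF9, went from 62.0 CPM at 0 h to 277 CPM at 5 h and 392 CPM at 12 h.

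Neighbours of members called higher were not all higher. UQCRC2, a mitochondrial complex III subunit gene beside NPIPB4, rose from 159.5 to 345 CPM at 5 h, and OTOA, also beside NPIPB4, from 0.732 to 3.96 CPM. SBK1, a kinase gene beside NPIPB6, fell from 135.5 to 70.0 CPM at 5 h. SULT1A1, a sulfotransferase gene beside NPIPB8 and also of a recently duplicated family, fell from 16.9 to 7.26 CPM. Beside GOLGA8O, itself called lower, the nicotinic receptor gene CHRNA7 fell from 10.8 to 2.54 CPM at 5 h. LPCAT4, next to both GOLGA8A and GOLGA8B, was called lower at 5 h (28.7 to 15.2 CPM) and higher at 12 h (39.3 CPM).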

How the data were processed

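Messenger RNA of 9 Jurkat libraries was analysed from the whole-number counts per Ensembl gene that the authors deposited. The submitters' processing notes name cutadapt, RSEM, DESeq2 and GRCh38.p13, while the annotation release and strand setting were not given in the sources used here. The authors also deposited log2 values for 12692 genes, each with a count in all 9 libraries, used in 1 alternative. Members and gene lists were chosen with earlier results of these data known. Symbols came from the authors' tables for 39 members and from a gene-name table for 19. Counts were fitted with edgeR 4.0.16 (R 4.3.3; TMM, filterByExpr, quasi-likelihood test, a coefficient per group over all 9 libraries), once per gene (12036 tested) and once with each family as a sum (12003 rows), with a call where the Benjamini-Hochberg adjusted value was under 0.05. The fit was tested on simulated data. Named members were the 6 of each family with the highest mean CPM among those tested, and any with a log2 fold change of at least 1 in size; members called between 5 h and 12 h were added after their values were seen. Coordinates (1-based) and transcripts are from GENCODE release 29, promoters from RefSeq. Alternatives were RLE size factors, no filter, a replicate block, DESeq2 1.42.0, limma 3.58.1 on the log2 values, only the groups compared, each library left out, sums without the most counted member, and, added after seeing the data, the NPIPA sum with ENSG00000183889. Floors cover counting error only.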

Additional observations from a re-analysis of the deposited data

Results flagged for a closer look

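Of the 38 tested members, 9 had changes from 0 h that differed between the 2 times of activation, as did the NPIPA sum. These were called by the fitted contrast of 12 h against 5 h over all genes. By the same contrast, 36.1% of all tested genes were called. The log2 fold changes given here are 12 h against 5 h, in edgeR's fit. The members were picked with these data in view, so the values are a description.

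NBPF1 was at 180 ± 5.40 CPM at 5 h and 140.5 ± 21.0 CPM at 12 h (log2 -0.36), a call lost without 12 h replicate 3 (-0.28). NBPF14 (log2 -0.44) and NBPF20 (log2 -0.46) kept their calls in each of the 6 fits that left out 1 library. NBPF12 had a log2 fold change of -0.35, and its call was lost without 5 h replicate 1 (-0.33), 5 h replicate 2 (-0.31), 12 h replicate 2 (-0.18) or 12 h replicate 3 (-0.34).

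NBPF3, the NBPF copy with the most sequence of its own, was higher at 12 h, at 5.43 ± 1.03 CPM against 3.09 ± 1.16 CPM at 5 h (log2 0.80), on 235 counts in all libraries together. Its call was lost without 5 h replicate 2 (0.51) and without 12 h replicate 1 (0.67), 2 (0.84) or 3 (0.91), and its call at 12 h against 0 h (log2 0.83) in 5 of 6 such fits. GOLGA8A was also higher at 12 h (log2 0.37), a call lost without 5 h replicate 1 (0.28) or 12 h replicate 3 (0.32).

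NPIPA9 had a log2 fold change of -0.75, and its reads may be divided with ENSG00000183889, which is not a member. The NPIPA sum had a value of -0.41 without that row and -0.37 with it, called lower both ways. NPIPB13 was lower at 12 h (log2 -0.51), a call lost without 5 h replicate 1 (-0.37), 12 h replicate 2 (-0.40) or 12 h replicate 3 (-0.38). NPIPB2 was lower as well (log2 -0.65), and its call was lost without 5 h replicate 1 (-0.63), 5 h replicate 2 (-0.42), 12 h replicate 2 (-0.67) or 12 h replicate 3 (-0.44).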

How the results depend on the processing

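The family sums kept their direction and their side of the threshold with RLE size factors, with DESeq2 and with ENSG00000183889 added to NPIPA. Without the most counted member, the GOLGA8 sum (0.15 at 5 h), the NPIPA sum (-0.12 at 12 h, -0.21 at 12 h against 5 h) and the GOLGA6 sum (0.26 at 12 h) were no longer called, the GOLGA8 sum became called at 12 h against 5 h (0.30), and the uncalled GOLGA6 sum changed sign there (-0.11). The uncalled NPIPA sum at 5 h changed sign without a filter (-0.0025), with the replicate block (-0.0075) and with only the groups compared (-0.0020). Members called lower at 5 h numbered 1 with DESeq2 and 1 with limma in place of 2, and 0 to 2 with 1 library left out. Members called higher at 12 h against 5 h numbered 1 with DESeq2 and 1 with only the groups compared in place of 2, and 1 to 2 with 1 library left out. Members called lower there numbered 3 to 10 in place of 7. DESeq2 also lost the calls of NPIPA7 at 5 h (0.48), of NPIPB8 (1.17) and NBPF3 (0.84) at 12 h, and of NPIPB13 (-0.49) and NBPF3 (0.81) at 12 h against 5 h. In that comparison limma lost NPIPB2 (-0.60), and the fit of only the groups compared lost NBPF12 (-0.34) and NBPF3 (0.81). The cause of these changes was not tested.

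With 1 library left out, the sums at 12 h against 5 h ran from -0.31 to -0.14 (NBPF), -0.31 to -0.12 (NPIPB), -0.52 to -0.30 (NPIPA) and -0.0050 to 0.096 (GOLGA6), and the NPIPA sum at 5 h from -0.094 to 0.10. Uncalled members that changed sign then had log2 ranges at 5 h of -0.068 to 1.14 (GOLGA8H), -0.44 to 0.26 (NPIPA2), -1.07 to 0.072 (NPIPA8), -0.20 to 0.011 (NPIPA9) and -0.14 to 0.32 (NBPF3). At 12 h they were -0.64 to 0.58 (GOLGA8H), -0.17 to 0.19 (NBPF12) and -0.24 to 0.53 (NPIPA2). At 12 h against 5 h they were -0.048 to 0.15 (GOLGA8B), -0.14 to 0.50 (GOLGA8N), -0.34 to 0.37 (GOLGA8O), -0.26 to 0.54 (NPIPA2), -0.86 to 0.22 (NPIPA8) and -0.031 to 0.22 (NPIPB4). GOLGA8O at 12 h against 5 h, at -0.003, also changed sign with the replicate block (0.034), DESeq2 (0.043), limma (0.082) and only the groups compared (0.014). With limma, NPIPA2 at 5 h (-0.090), NBPF3 at 5 h (-0.033) and GOLGA8H at 12 h (0.023) changed sign.

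Same-numbered libraries of different groups did not deviate together from their group means (correlations of -0.14 to 0.16), so the numbers were not taken as pairs. With the replicate block, the family sums kept their side of the threshold and 25 members were called higher at 5 h and 22 at 12 h, as without it. Members called lower numbered 2 at 5 h, 5 at 12 h and 9 at 12 h against 5 h, in place of 2, 4 and 7. The calls gained among the named members were NPIPA8 at 12 h (-0.74), and NPIPA1 (-0.36) and NPIPB11 (-0.32) at 12 h against 5 h. These 3 were also gained without a filter (-0.85, -0.34 and -0.32), and NPIPA1 with limma (-0.37). Depth limits the members with few counts: NPIPB8, NPIPA3 and GOLGA8H had 131, 165 and 71 counts over all libraries.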
